A study of Mus musculus with 2 samples.

Results

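Regions bound by the transcription factor Runx1 were described where at least 5 of them lay close together on a chromosome. The regions, called peaks, came from chromatin immunoprecipitation followed by sequencing, in which DNA fragments recovered with an antibody are counted along the genome. Clusters were defined by peak position alone. Peaks on chromosomes 1 to 19 and X were ordered by midpoint, neighbours with midpoints at most 20 kb apart were joined, and every joined run of 5 or more peaks was kept, whatever its scores. This rule kept 366 of the 6792 peaks in the list (5.39%, Wilson 95% interval 4.88 to 5.95%), which fell into 62 clusters on 17 chromosomes. The 3 peaks on unplaced contigs were not considered.

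The peak list compared 1 library precipitated with a rabbit antibody against a C-terminal peptide of Runx1 with 1 library precipitated with rabbit IgG, the background control. Both came from BMiFLT3(15-3), a line of pro-B cells taken from a mouse B-cell-precursor leukaemia, and both carried Runx1-ERt2, a Runx1 fusion that enters the nucleus on addition of tamoxifen. The protocol names 0.2 µM tamoxifen or ethanol for 24 h, without assigning either to a library. The control library therefore shared the cell line and the transgene with the Runx1 library, and peaks of the cells' own Runx1 and of the fusion cannot be told apart. Each antibody had 1 library, so there was no error between cultures, no test of the immunoprecipitation was made, and no p-value is given. The list holds no read numbers, and the depth behind each peak is unknown.

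Runx1 binds DNA together with its partner Cbfb as core-binding factor, and it is required for the formation of blood stem cells and for early B-cell development. In B-cell progenitors it acts with factors such as Ebf1 and Pax5 at promoters and enhancers. Genes that define a lineage are often controlled by several enhancers spread along the chromosome around them, so that binding regions of a factor can occur in groups. The genes at the clusters described here were not identified, because the positions are on mouse build mm9 and the gene table at hand describes a later build. Sequence of mm9 was not used here either, so no motif was read in these peaks.

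Most clusters were just large enough to be included. Of the 62, 33 held 5 peaks, 13 held 6, 10 held 7 and 4 held 8, and the others held 10 and 11. Their spans, from the start of the first peak to the end of the last, had a median of 37.3 kb (exact 95% interval of the median 31.4 to 40.5 kb, n = 62 clusters) and ranged from 9.67 to 80.9 kb. Bound sequence was a small part of a cluster. The peaks covered a median of 13.2% of the span (quartiles 11.2 and 16.7%), and the typical density was 1.59 peaks per 10 kb. Together the 366 peaks covered 314 kb of the 2326 kb that the clusters spanned.

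**Figure D1:**
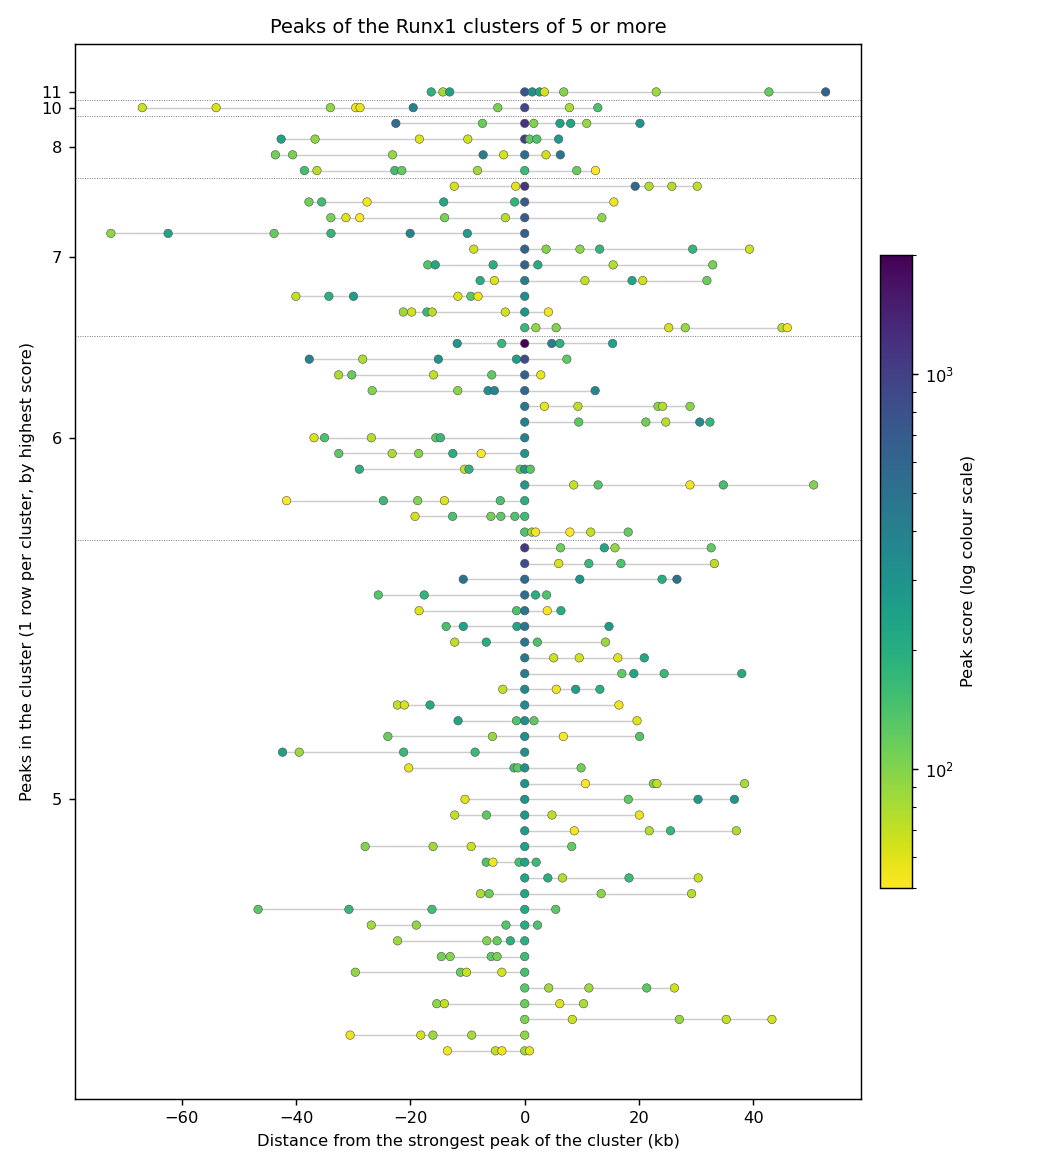
Each row is 1 of the 62 clusters and each point 1 peak, placed by its distance in kb from the highest-scoring peak of its cluster and coloured by score on a log scale. Rows are grouped by the number of peaks, from 11 at the top to 5 at the bottom, and sorted by highest score within a group. In 22 of the 62 rows there is both a peak of at least 200 and one under 60. The highest-scoring peak lies at either side of the cluster as well as inside it.

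Neighbouring peaks within clusters were a median of 5.97 kb apart between midpoints (exact 95% interval 5.30 to 7.03 kb, 304 neighbour links), with quartiles of 2.67 and 11.5 kb. Short steps were the most frequent: 131 links (43.1%) measured at most 5 kb and 212 (69.7%) at most 10 kb. Spacing was close to that in smaller groups. Peaks in groups of 2 lay a median of 6.0 kb apart (5.36 to 6.60 kb, 825 links) and peaks in groups of 3 or 4 a median of 5.71 kb apart (4.98 to 6.26 kb, 800 links), and the 3 intervals overlapped. All 3 medians are bounded above by the 20-kb limit used to join peaks. Larger clusters were longer, with little change in spacing. Across the 62 clusters, Spearman's rho between the number of peaks and the span was 0.56, and that between the number of peaks and the median spacing was -0.18. Because the span adds up the steps between peaks, a longer span with more peaks follows in part from the definition. Both values are given as descriptions.

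**Figure D2:**
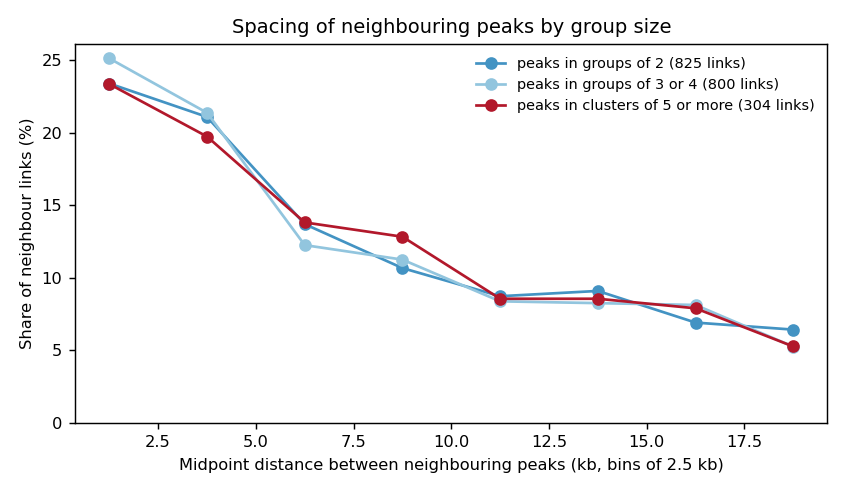
The share of neighbour links, in percent, is plotted against the midpoint distance between neighbouring peaks in bins of 2.5 kb, with 1 line per group size. The 3 lines run close together and fall with distance, from 23.4% of links in the shortest bin to 5.26% in the longest for clusters of 5 or more.

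The 6 clusters with 8 or more peaks show what such a run of binding looks like. The score of each peak, which ranks it within the list, is given here from the lowest to the highest coordinate. The cluster of 11 on chromosome 10 (chr10:79340364-79410321) had scores of 184, 83.4, 247, 743, 315, 229, 62.3, 98.7, 85.9, 121 and 655. It had 2 strong places 52.7 kb apart, the fourth peak and the last, with weaker peaks between them. The 10 peaks of the cluster on chromosome 7 (chr7:132698765-132779623), the longest of all, scored 67.5, 62.03, 92.3, 55.3, 56.4, 403, 105, 888, 79.3 and 144. Its first 5 peaks were all under 100, and both strong peaks lay in the later part.

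The 4 clusters of 8 also differed among themselves. On chromosome 5 (chr5:125487466-125537264) the scores were 240.4, 93.6, 61.1, 66.5, 1027, 123, 137 and 280, so that 1 peak stood far above the other 7. On chromosome 7 (chr7:16742557-16793438) they were 109.9, 105, 91.5, 422, 64.2, 522, 65.3 and 472. Here 3 peaks of nearly equal score alternated with much weaker ones. The other chromosome 7 cluster of 8 (chr7:71041003-71085073) scored 554, 116, 1160, 101, 241, 227, 90.2 and 298, and 5 of its peaks exceeded 200. The cluster on chromosome 9 (chr9:61511557-61563172) was the exception. Its scores were 149.8, 73.5, 158, 121, 85.1, 165, 118 and 51.2, so that none of its 8 peaks reached 200.

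Cluster members scored somewhat higher than the list as a whole, as did peaks in smaller groups. The score is the authors' value for each peak from their peak caller. Its scale is not given in the sources used here, so a ratio of scores is not a ratio of bound protein. The median member scored 122.6 (exact 95% interval 111.6 to 134.2, n = 366), with quartiles of 75.5 and 216. The median over all peaks on these chromosomes was 109.5 (107.2 to 112.3). A score of at least 100 was reached by 218 members, 59.6% (Wilson 95% interval 54.5 to 64.5%), against 55.0% of all 6789 peaks on these chromosomes. A score of at least 200 was reached by 101 members, 27.6% (23.3 to 32.4%), against 23.6%. Both shares lie near those of the whole list. A score of at least 500 was reached by 23 members, 6.28% (4.22 to 9.25%), against 3.37%. Clusters of exactly 5 held 5 of these peaks, 3.03% of their 165 members (1.30 to 6.90%). Clusters of 6 or more held 18, 8.96% of 201 (5.74 to 13.7%), and the intervals of both sizes overlapped. The share did not rise in order of size, as it was 5.54% in groups of 3 or 4 and 4.44% in groups of exactly 4. These intervals treat peaks as independent and are too narrow for peaks that lie in clusters, and the scores come from the same comparison that gave the positions, so they are descriptions.

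Cluster members were 5.39% of the peaks on these chromosomes, and more frequent among the highest scores. They were 65 of the 1000 highest-scoring peaks (6.5%, 5.13 to 8.20%) and 39 of the highest 500 (7.80%, 5.76 to 10.5%). They were 13 of the highest 100 (13.0%, 7.76 to 21.0%), 8 of the highest 50 (16.0%, 8.34 to 28.5%) and 3 of the highest 10 (10.8 to 60.3%). These sets are nested, the interval of the first includes 5.39%, and the last rest on few peaks. High scores were not particular to clusters: of the 229 peaks of at least 500, 64 lay in groups of 3 or 4 (1155 peaks) and 23 in clusters (366 peaks). Scores under 60, close to the lowest in the list, were found for 36 members (9.84%, 7.19 to 13.3%). The share was 13.5% over all peaks on these chromosomes and 15.4% for isolated peaks. It was 12.3% in groups of 2 and 10.3% (8.68 to 12.2%) in groups of 3 or 4, so the lower share was not particular to clusters. Of the 62 clusters, 28 held such a peak and counted it toward their size.

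Score did not rise steadily with group size. The median was 99.8 for peaks with no neighbour (97.0 to 102.4, n = 3618), 119.8 in groups of 2 (114.5 to 124.5, n = 1650), 132.6 in groups of 3 or 4 (124.1 to 144.2, n = 1155) and 122.6 in clusters of 5 or more. The members of clusters thus scored above isolated peaks, and their interval overlapped those of both smaller groups. The share of scores of at least 500 rose over the same pooled classes, but not by exact size. It was 2.21% for isolated peaks, 3.76% in groups of 2, 5.54% (4.36 to 7.01%) in groups of 3 or 4 and 6.28% in clusters. The last 2 intervals overlapped. By exact size the share was 4.44% in groups of exactly 4 and 3.03% in clusters of exactly 5.

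Within a cluster, scores were uneven. The highest score of a cluster had a median of 333 (exact 95% interval 284 to 469, n = 62) and ranged from 83.0 to 1956. The lowest had a median of 61.5 and ranged from 50.5 to 196. The highest score was a median of 5.44 times the lowest in the same cluster (4.0 to 6.51), and the ratio ran from 1.56 to 19.5. It was at least 10 in 12 clusters and under 2 in 7. In 22 clusters (35.5%) at least 1 peak scored 200 or more and at least 1 scored under 60, not always as neighbours.

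The step from the strongest peak to the next was modest in most clusters. The strongest scored a median of 1.69 times the second (1.43 to 1.99), at least 2 times as much in 22 clusters and under 1.2 times as much in 15. It made up a median of 36.3% of the summed score of its cluster. In the 33 clusters of exactly 5, the median scores from strongest to weakest were 302, 168, 125, 86.0 and 64.5. In those of 6 they were 402, 168, 143, 124, 80.8 and 61.5. In the 10 clusters of 7 the strongest had a median of 636 and the second of 219.9, with a median of 56.5 for the weakest. The weakest peak of a cluster was thus close to the lower end of the list at each of these sizes, while the strongest was higher in larger clusters.

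**Figure D3:**
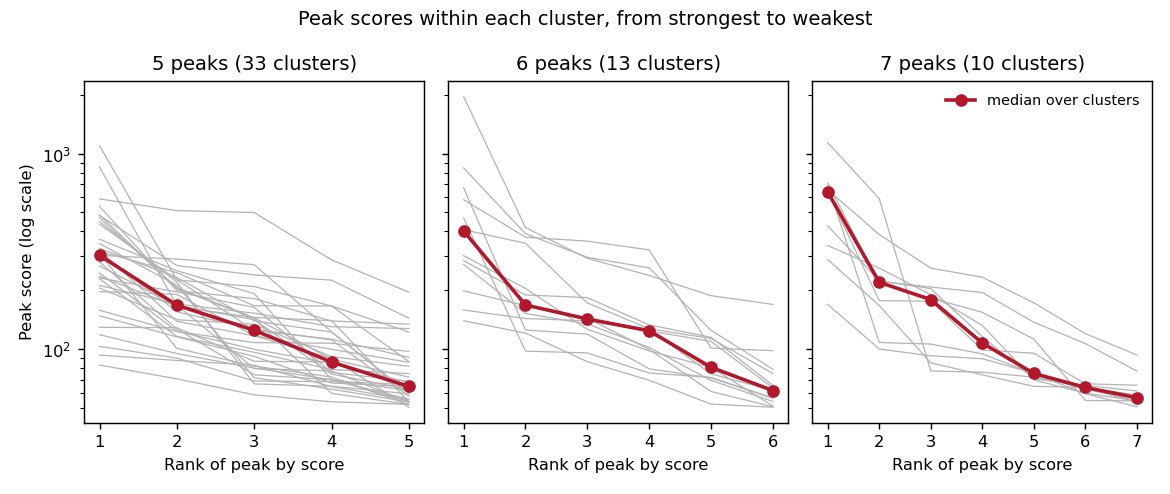
Each grey line is 1 cluster, with its peaks ordered by score from strongest to weakest on a log scale, in separate panels for clusters of 5, 6 and 7 peaks. The red points are the medians over clusters, which fall from 302 to 64.5 for 5 peaks, from 402 to 61.5 for 6 and from 636 to 56.5 for 7.

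The rise of the highest score with size can be put in numbers. Spearman's rho between the number of peaks and the highest score was 0.43 across the 62 clusters, and 0.53 for the ratio of highest to lowest. For the median score of a cluster it was 0.06. A larger cluster offers more peaks from which the highest and the lowest are taken, so the first 2 values are not evidence of stronger binding in larger clusters. Of all clusters, 49 held a peak of at least 200, among them 21 with exactly 1 such peak and 28 with more. In 8 clusters 4 or more peaks reached 200, and 19 clusters held a peak of at least 500. At the low end, 13 clusters held no peak of 200 and 2 held none of 100.

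Clusters with very strong peaks were found on several chromosomes. The cluster with the highest score in the list lay on chromosome 5 (chr5:113573522-113601807), with scores of 291, 169, 1956, 419, 188 and 238. All 6 of its peaks were above the median of the list, and the second strongest lay next to the strongest. On chromosome 9 (chr9:63573889-63607509) the first of 5 peaks scored 1096, and the others 112, 227, 90.9 and 125. The cluster on chromosome 11 (chr11:117157239-117200359) had the largest ratio of highest to lowest score of the 62, 19.5. Its scores were 63.6, 58.5, 1138, 588, 77.5, 76.3 and 72.0. Its 2 strong peaks were neighbours, 18288 bp apart from edge to edge, with weak peaks at both sides.

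Further clusters of this kind lay on chromosome 5. In 1 of them (chr5:35995712-36043839) a peak of 696 stood among 6 others of 108, 59.2, 50.8, 106, 74.9 and 94.7. The strongest scored 6.43 times the second there, more than in any other cluster. In another (chr5:112682973-112717126) the first peak scored 853 and the next 4 scored 62.3, 167, 142 and 74.7. These 2 clusters differ in where the strong peak lay, the sixth of 7 in the former and the first of 5 in the latter.

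At the other extreme were clusters of peaks with nearly equal scores. On chromosome 16, 1 cluster (chr16:10969211-11013216) had scores of 103, 68.3, 90.04, 68.9 and 66.1, and a second (chr16:38385613-38400720) had 52.3, 70.6, 53.9, 83.0 and 58.5. A cluster on chromosome 15 (chr15:74736252-74767672) scored 55.1, 64.4, 87.6, 82.8 and 93.4. The peaks of these clusters scored at most 103, and the second chromosome 16 cluster and the chromosome 15 cluster are those without a peak of 100. Even clusters at a higher level also existed. On chromosome 11 (chr11:59988482-60003927) the scores were 108, 97.5, 123, 107 and 158. On chromosome 7 (chr7:52430382-52483195) they were 130.4, 170.5, 153, 212 and 128. In that cluster the peaks were also far apart, with a median spacing of 15.2 kb, the widest of the 62.

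The strongest peak had no fixed place in the order of peaks in its cluster. It was the first or the last peak in 25 of 62 clusters (40.3%, Wilson 95% interval 29.0 to 52.7%), namely the first in 14 and the last in 11, and an inner peak in 37. Ends made up 33.9% of all member positions, or 35.1% as a mean over clusters, and both values lie within that interval. The weakest peak was at an end in 26 clusters (41.9%, 30.5 to 54.3%). End and inner peaks had similar scores, with medians of 125 (103 to 140.1, n = 124) and 122 (106 to 137, n = 242). Each cluster was also divided along its length into 3 equal stretches. The strongest peak lay in the first stretch in 22 clusters, in the middle in 10 and in the last in 30. These stretches held 36.6, 24.9 and 38.5% of members. Their median scores were 109 (93.4 to 134.3), 119 (98.1 to 143.5) and 134 (120.9 to 158.7), with overlapping intervals. A difference between stretches was not tested. In the 33 clusters of 5 the strongest peak was the first in 9, the second in 3, the third in 8, the fourth in 8 and the fifth in 5. It was at an end in 8 of the 13 clusters of 6 and in 3 of the 10 clusters of 7. In the 6 clusters of 8 or more it was always an inner peak, but ends are a smaller part of the places in such clusters.

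Median scores did not change steadily with distance from the strongest peak, and were highest within 2 kb of it. The 21 peaks within 2 kb of it had a median score of 133 (101 to 155). The 32 at 2 to 5 kb had 106 (65.3 to 141), the 60 at 5 to 10 kb 111 (79.3 to 125) and the 83 at 10 to 20 kb 99.8 (90.2 to 137). The 90 at 20 to 40 kb had 94.7 (85.2 to 116) and the 18 at 40 to 100 kb 103 (67.5 to 130). The intervals of neighbouring distances overlapped, and the first overlapped the last. As a percentage of the strongest score of the cluster, the medians in the same order were 40.6 (30.9 to 49.4), 26.2, 33.6, 33.2, 28.5 and 24.5 (18.4 to 44.5). Here too the first and last intervals overlapped. The intervals treat peaks of the same cluster as independent, and their overlap does not show that scores are equal. A trend with distance was not tested. Direct neighbours of the strongest peak had a median score of 115 (89.9 to 125, n = 99), and peaks 2 steps away 119 (90.04 to 139.5, n = 80). The second strongest peak was next to the strongest in 16 clusters (25.8%, 16.6 to 37.9%). Places next to the strongest peak made up a mean of 33.9% of the places left for it, a value within that interval.

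**Figure D4:**
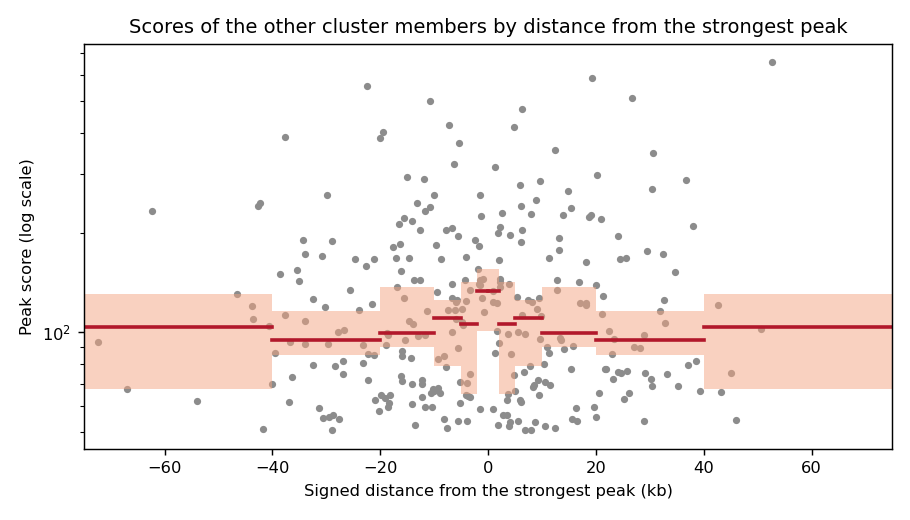
Each grey point is 1 of the 304 cluster members other than the strongest, with its signed distance in kb from the strongest peak of its cluster and its score on a log scale. Red lines are medians over distance classes, pooled over both sides and drawn on each, and the shading is their exact 95% interval. The medians lie between 94.7 and 133.

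Neighbours were about as unlike in score as members farther apart. The absolute difference in log2 score had a median of 0.93 between adjacent members (304 pairs) and 0.90 between non-adjacent members of the same cluster (643 pairs). Between members of different clusters it was 0.95. Differences between clusters made up 23.4% of the sum of squares of log2 score over the 366 members, where 61 of 365 degrees of freedom (16.7%) lie between clusters. The rest lay within clusters. No interval is given for these values, because pairs share peaks.

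Peaks in clusters had a median width of 810 bp (exact 95% interval 795 to 837 bp, range 409 to 2140 bp). The median over all peaks on these chromosomes was 787 bp. It was 774 bp for isolated peaks, 793 bp in groups of 2 and 814 bp (803 to 824 bp) in groups of 3 or 4. The width of members was thus not particular to clusters. Wider members scored higher, with a Spearman's rho of 0.57 across members, against 0.50 across the other peaks. When the list was divided by score into 4 classes of equal size, members of the lowest class had a median width of 709 bp and other peaks 691 bp. In the next 2 classes the medians were 757.5 against 760.0 bp and 844 against 813 bp. In the highest class they were 952 and 914 bp, so that members were the wider in 3 of these 4 classes. The strongest peak of a cluster had a median width of 947.5 bp and the other members 791 bp, and the strongest was also the widest in 28 of 62 clusters.

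Some clusters owed their number of peaks to intervals almost touching each other. No members overlapped, but 32 of the 304 links (10.5%, 7.56 to 14.5%) had a gap of at most 500 bp between edges, the smallest being 1 bp, and 78 links (25.7%) had a gap of at most 2 kb. The share of gaps of at most 500 bp was 10.9% in groups of 2 and 11.4% in groups of 3 or 4. Such close pairs occurred in 23 of the 62 clusters. Their scores differed by a median factor of 1.68 (1.37 to 2.43, n = 32), against 1.92 (1.67 to 2.08, n = 272) for neighbours farther apart. After intervals within 500 bp were joined into 1, 53 of the 62 clusters still held 5 or more, and after joining within 2 kb 33 did.

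The tightest cluster was the clearest case. It lay on chromosome 9 (chr9:57485447-57495114), held 5 peaks in 9.67 kb and was covered by peaks over 44.5% of its length. Its scores were 140.1, 53.8, 145, 236 and 165. Joining within 500 bp left 3 intervals and joining within 2 kb left 2. The next shortest clusters, on chromosomes 16 and 11, spanned 15.1 and 15.4 kb, and are the clusters of even scores at chr16:38385613-38400720 and chr11:59988482-60003927. They were left with 3 and 4 intervals after joining within 500 bp. The cluster of 11 on chromosome 10 was left with 7 intervals, and the cluster of 10 on chromosome 7 with 9. By contrast, the second longest cluster, on chromosome 10 (chr10:76930717-77003982), had 7 peaks over 73.3 kb and no gap under 8807 bp. Its scores were 93.4, 233, 120.1, 173, 386, 259.7 and 653, with the strongest at the last place.

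Clusters held their size over a narrow range of scores. When peaks were removed from the lowest score upward, the score up to which a cluster still had 5 peaks joined within 20 kb had a median of 71.5 (64.5 to 81.9). For the 33 clusters of exactly 5 this is their lowest score by definition, so these values follow in part from the size limit. At a minimum score of 60, 44 of the 62 clusters still had 5 joined peaks, at 80 24 did, at 100 13, at 150 3 and at 200 0. The cluster that held longest, up to a score of 196, lay on chromosome 10 (chr10:59715153-59753596) and had 5 peaks over 38.4 kb. The next was the chromosome 5 cluster with the highest score in the list, which held up to 188, and then the cluster of 11 on chromosome 10, which held up to 184.

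Groups on either side of the size limit had similar scores. Just inside it, the 33 clusters of exactly 5 had a median highest score of 302, a median lowest score of 64.5 and a median ratio of 3.65. Just outside, the 90 groups of exactly 4 had 326, 67.7 and 4.20, and 4.44% of their peaks scored at least 500, against 3.03% in clusters of exactly 5. The distance limit did not fall in a gap either. The longest link within a cluster measured 19.995 kb, and the nearest peak outside a cluster lay 20.03 kb away. The nearest outside peak was within 25 kb for 9 clusters and within 50 kb for 31, and beyond 200 kb for 7, with a median of 47.8 kb.

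The number of clusters per chromosome ran from 0 to 9. Chromosome 5 held 9, chromosome 11 held 7, chromosomes 10 and 17 held 6 each and chromosome 7 held 5. The share of a chromosome's peaks that lay in clusters was 10.8% on chromosome 10 (Wilson 95% interval 8.08 to 14.2%), 10.6% on chromosome 5 (8.26 to 13.6%) and 10.3% on chromosome 17 (7.49 to 14.1%). It was 1.77% on chromosome 3 (0.757 to 4.07%), 1.48% on chromosome 8 (0.633 to 3.42%) and 1.47% on chromosome 6 (0.630 to 3.40%). These are the highest and the lowest shares above 0, and the latter 3 chromosomes held 1 cluster each. The intervals are over single peaks and are too narrow where peaks come 5 or more at a time, so no difference between chromosomes is drawn from them.

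No cluster of this size lay on chromosomes 12, 14 and X. Chromosome 12 had 0 of 292 peaks in such clusters and chromosome 14 had 0 of 254, which would allow shares of up to 1.03% and 1.18% (3 counts) or have Wilson upper bounds of 1.30% and 1.49% if peaks were independent. Since members come at least 5 at a time, a single cluster would already give 1.71% and 1.97%, and these limits are not bounds on the share in clusters. The largest group was of 4 peaks on each. On X the largest group was of 2 peaks, and a single cluster of 5 would be 11.1% of its 45 peaks, so that a difference from the 5.39% over all chromosomes was not detectable on X (0 of 45 peaks allows up to 6.67% by counting alone).

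**Figure D5:**
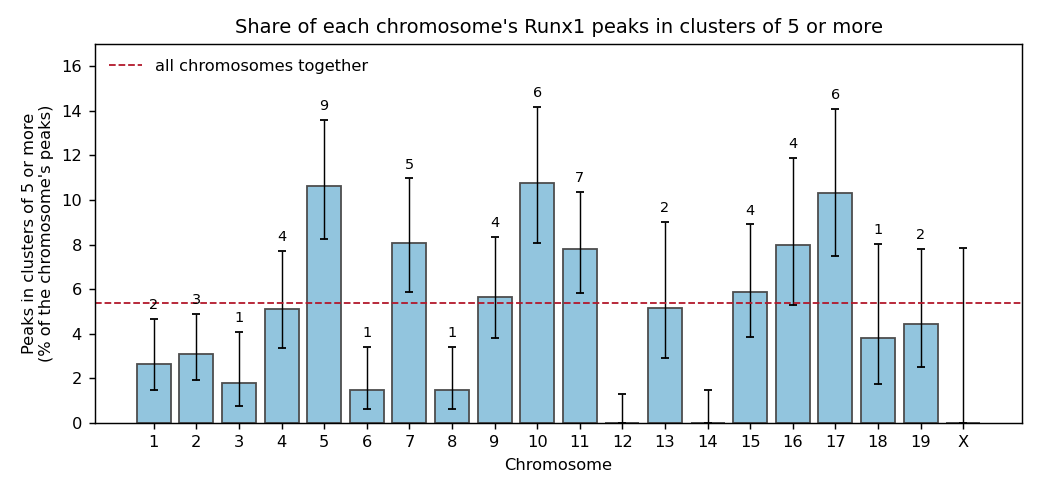
Bars give the share of each chromosome's peaks that lay in clusters of 5 or more, in percent, with Wilson 95% intervals, and the number above a bar is its number of clusters. The dashed line marks the 5.39% of all chromosomes together. Chromosomes 5, 10 and 17 stand above 10%, and chromosomes 12, 14 and X have none.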

How the data were processed

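The members were chosen with earlier results of these data known, as were the ranges and comparisons described. The deposited file is 1 list of peaks, each with a score, which the authors made by comparing Runx1 with IgG, as its track name shows. MACS 1.4.01, Bowtie 0.12.8, CASAVA 1.8.2 and build mm9 are listed without settings in the submitters' processing notes. How duplicate reads were treated, how tags were shifted and how the control was scaled is not given. Per the labels' protocols, fragments of 350 to 550 bp were isolated. Library depth is unknown, so no threshold could be tied to it.

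Positions are printed counting from 1. Spacing is between midpoints, and a gap is between edges. Shares have Wilson 95% intervals, and medians have exact binomial intervals from order statistics. Both cover counting error only. A share of 0 was given the limit that 3 counts allow. The text names clusters of 8 or more peaks, the 5 with the highest score, the 5 with the largest and the 5 with the smallest ratio of scores, and the 3 longest and 3 shortest. Other clusters were named after their values were seen. The joining of peaks was tested on simulated data. The sequence and gene comparisons planned for an mm9 reference were not run. Python 3.11.15, numpy 2.4.6, pandas 2.3.3, scipy 1.17.1 and matplotlib 3.10.9 were used.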

Additional observations from a re-analysis of the deposited data

How the results depend on the processing

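Of 96 values recomputed under 12 alternatives, 54 stayed within 1.5 times the count reported or within the interval of the median or share. The share of clusters with the strongest peak at an end did so under all 12, between 30.8% (score of at least 100) and 43.75% (distance of 10 kb). With a score of at least 100 there were 13 clusters of 69 peaks, with median spacing 7.59 kb, span 30.8 kb, ratio of highest to lowest score 3.60 and score 209, and 52.2% of members at 200 or more. With scores at or above the list median there were 13 clusters of 68 peaks (spacing 7.80 kb, span 30.8 kb, ratio 3.60, score 210.4, share at 200 or more 52.9%). The score values rise and the ratio falls by construction when low scores are removed.

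Joining at 10 kb gave 16 clusters of 87 peaks (spacing 3.99 kb, span 19.6 kb), at 15 kb 39 of 225 (4.96 and 29.4 kb), at 30 kb 112 of 676 (8.22 and 49.5 kb) and at 50 kb 192 of 1245 (10.7 and 81.3 kb), which by construction changes spacing and span. Merging intervals within 2 kb gave 33 clusters of 183 peaks (8.62 and 44.01 kb), with 33.3% of members at 200 or more. Counting groups of 4 or more gave 152 of 726 peaks (span 27.9 kb), and of 6 or more 29 of 201 (span 43.1 kb, ratio 6.99). Edge-to-edge distance, merging within 500 bp and leaving out the peak wider than 5 kb moved none of the 8 values beyond these limits. The last could not, since that peak is no member. No paired analysis was possible because each antibody had 1 library, and for the same reason no replicate could be left out. Without read numbers, it is not known which weak peaks depth would add or remove.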

Other observations

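Among the top 10 peaks by score, 3 were cluster members, and some of the others lay not far from a cluster. The peak ranked second (chr16:11068218-11069454, score 1752) belonged to a group of 3 peaks. It lay 55.0 kb from the end of the cluster at chr16:10969211-11013216, whose 5 peaks scored between 66.1 and 103. The peak ranked next (chr10:80791452-80792832, score 1704) had no neighbour within 20 kb. It lay 249 kb from a cluster of 7 at chr10:81041786-81068074, whose highest score was 287. The nearest clusters of the remaining 5 were between 8666 and 14764 kb away.

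Clusters also followed each other along some chromosomes. In 7 cases the next cluster began within 1 Mb of the end of the last. The closest were 2 clusters of 7 on chromosome 5, which lay 469 kb apart, the first from 35479882 to 35526617 and the second from 35995712 to 36043839. On the same chromosome 3 clusters followed each other between 112682973 and 114287498, at distances of 856 and 635 kb, and held 5, 6 and 7 peaks with highest scores of 853, 1956 and 635. A pair of clusters of 7 on chromosome 10, beginning at 76930717 and 77526695, was 523 kb apart.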
